A study of Mus musculus with 138 samples.

Results

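The smooth muscle contractile genes followed here are Acta2, Tagln, Myh11, Cnn1, Tpm1, Tpm2, Myl9, Mylk, Des and Actg2, 10 of the 55487 genes counted in calvarial sutures of C57BL/6J wild-type mouse embryos. The set is given by name, as parts of the contractile apparatus, and was chosen with earlier results of these data known. All 10 passed the filter on low counts, which kept 19768 genes. A suture is the fibrous joint between growing skull bones. Its suture mesenchyme (SM) lies between the osteogenic fronts (OFs), the bone edges in which osteoblasts form. SM and each OF of the frontal, sagittal, lambdoid and coronal sutures were cut out by laser-capture microdissection at E16.5 and at E18.5 (E, embryonic day), which gave 20 groups of 5 libraries. The frontal suture has a frontal OF (FR), the sagittal a parietal OF (PA), the lambdoid an interparietal (IP) and a parietal OF, and the coronal a frontal and a parietal OF. No embryo carried a mutation or received a treatment. The questions were whether these genes were higher in SM than in OFs, whether the coronal suture differed from the frontal and sagittal sutures, and in which cells of the coronal suture the transcripts lay.

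Smooth muscle contracts when actin filaments slide over myosin filaments, and the genes for this machinery are turned on together by serum response factor (SRF) with its cofactor myocardin, which bind a short motif called the CArG box. In embryonic skull tissue the best known smooth muscle cells are the mural cells that wrap vessels, namely vascular smooth muscle cells and pericytes. Fibroblasts that build or stretch matrix also use part of the set, above all Acta2, Tagln and the tropomyosins, whereas Myh11 is kept largely to mature smooth muscle.

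By role, Acta2 at chr19:34241090-34255590 (-) encodes the alpha actin of vascular smooth muscle and Actg2 at chr6:83512905-83536265 (-) the gamma actin of visceral smooth muscle. Myh11 at chr16:14194535-14291372 (-) encodes the smooth muscle myosin heavy chain, Myl9 at chr2:156775420-156781658 (+) a regulatory myosin light chain, and Mylk at chr16:34745210-35002420 (+) the kinase that phosphorylates this light chain and so starts contraction. Tpm1 at chr9:67022590-67049406 (-) and Tpm2 at chr4:43514711-43523765 (-) encode tropomyosins, which lie along actin filaments and occur in many cell types and in striated muscle. Cnn1 at chr9:22099216-22109630 (+) encodes calponin, which damps the myosin motor, Tagln at chr9:45929619-45936058 (-) encodes transgelin, an actin-bundling protein, and Des at chr1:75360329-75368579 (+) encodes desmin, the intermediate filament of muscle. Coordinates are of mm10 with the strand in parentheses. Pairs of reads were counted on exons without regard to strand, and pairs that fell on more than 1 gene were not counted. Of the 1988 exonic bases of Tagln, 1349 (67.9%) overlap exons of Pcsk7 and Gm48529 on the other strand, so its counts here come from the remaining bases. The shared bases were 772 of 11263 for Mylk, 220 of 3754 for Des and 0 for the other 7 genes.

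The CArG boxes found next to the start sites are shown because this motif is what the family is known to share. The RefSeq table for GRCm38.p6 held a window of 300 bases, from 250 before to 50 after the start, for 7 of the 10 genes. It held none for Tagln, Myh11 and Actg2. The window of Mylk, chr16:34784700-34784999 (+), lies inside the gene as placed above, so the sequence at the first base of that gene was not searched. A CArG box was searched by its letters with at most 1 G or C allowed in its A and T core, and the motif reads alike on both strands. Of the 7 windows, 2 held a match, those of Acta2 and Myl9, and each held 2. Stretches of 30 bases with the box in capitals are given 5′ to 3′ on the strand of the gene.
Acta2 box 1, chr19:34255438-34255467 (-): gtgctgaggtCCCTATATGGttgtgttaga
Acta2 box 2, chr19:34255388-34255417 (-): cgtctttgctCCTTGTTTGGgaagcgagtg
Myl9 box 1, chr2:156775293-156775322 (+): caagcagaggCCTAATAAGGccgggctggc
Myl9 box 2, chr2:156775355-156775384 (+): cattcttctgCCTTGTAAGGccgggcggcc
The Acta2 boxes began 84 and 34 bases upstream of the RefSeq start and those of Myl9 161 and 99 bases upstream. Both Acta2 stretches lie inside an exon of the longer GENCODE annotation (chr19:34255290-34255590), and those of Myl9 in no annotated exon. Over all 32851 windows of the table, 9.98% held such a box, 0.822% held 2 or more, and 1.63% held one without the allowed substitution, as Myl9 box 1 does. Among the smooth muscle partner genes described with the comparisons, 7 of 30 windows held one, among broadly used actomyosin genes 5 of 21 and among SRF and myocardin cofactors 4 of 10. These matches describe letters and say nothing of binding.

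First libraries held 7305627 to 34518477 counted read pairs, with a median of 14244957. Depth went with the suture, as each coronal first library held at least 20133332 pairs and each first library of the other sutures at most 18450955. Further libraries comprised 18 second coronal libraries, 3 for each region and age, 16 complete-suture libraries of E18.5, and 4 coronal single-cell libraries. Suture and library set cannot be told apart in the captured libraries. The labelled regions were checked with osteoblast markers, whose summed level ran from 23.3 to 936 counts scaled to library size (CPM) in SM libraries and from 1878 to 22571 CPM in OF libraries. By suture, the SM sums ran from 253 to 936 CPM in coronal and 23.3 to 213 CPM in frontal SM. They ran from 50.1 to 401 CPM in sagittal and 29.6 to 407 CPM in lambdoid SM. Skeletal muscle, which also expresses Tpm1, Tpm2 and Des, was checked with 16 markers. Their sum reached 839.6 CPM in lambdoid E16.5 SM replicate 5, against 64.6 to 151 CPM in the other 4 libraries of that group, and at most 298 CPM in any other first library. In these bulk samples fewer cells of a type and less RNA per cell cannot be told apart.

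The genes covered a wide range of levels (plot of CPM by group). Per kilobase of exon, in frontal E18.5 SM, the levels were 189.7 CPM per kb for Tpm1, 82.3 for Acta2, 65.0 for Myl9 and 45.1 for Tpm2. On the same scale Mylk stood at 14.9, Actg2 at 12.8 and Myh11 at 2.59 CPM per kb, whereas Cnn1 and Des lay at 1.89 and 0.367. Tagln is not placed on this scale, since most of its exonic bases are shared with other genes. The tropomyosins, the vascular actin and the light chain thus had the highest levels per kb. In group means of CPM, Tpm1 was highest in sagittal E18.5 SM (1717) and lowest in coronal E16.5 PA (327). Myl9 was highest in sagittal E16.5 SM (166) and lowest in coronal E16.5 PA (5.24), and Tagln ran from 16.8 in sagittal E18.5 SM to 0.340 in coronal E16.5 FR. The sagittal SM at one age or the other was the highest group for 6 of the genes, which also included Tpm2 (309), Cnn1 (14.6) and Actg2 (26.3). Acta2 and Myh11 did not follow this order. Acta2 was highest in coronal E18.5 PA (239) and lowest in coronal E16.5 FR (19.2), and Myh11 highest in coronal E18.5 FR (43.2) and lowest in coronal E16.5 PA (0.477). Mylk was highest in frontal E16.5 SM (185) and lowest in sagittal E16.5 PA (32.5), and Des ran from 5.03 in lambdoid E16.5 SM to 0.0561 in coronal E16.5 FR. The lowest group was a coronal OF at E16.5 for 9 of the genes, Mylk being the other one. Along this order of 20 groups, neighbouring groups overlapped in their libraries in 16 of 19 pairs for Tpm1, in 18 of 19 for Myh11, Mylk and Tpm2, and in 19 of 19 for the other 6 genes.

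**Figure D1:**
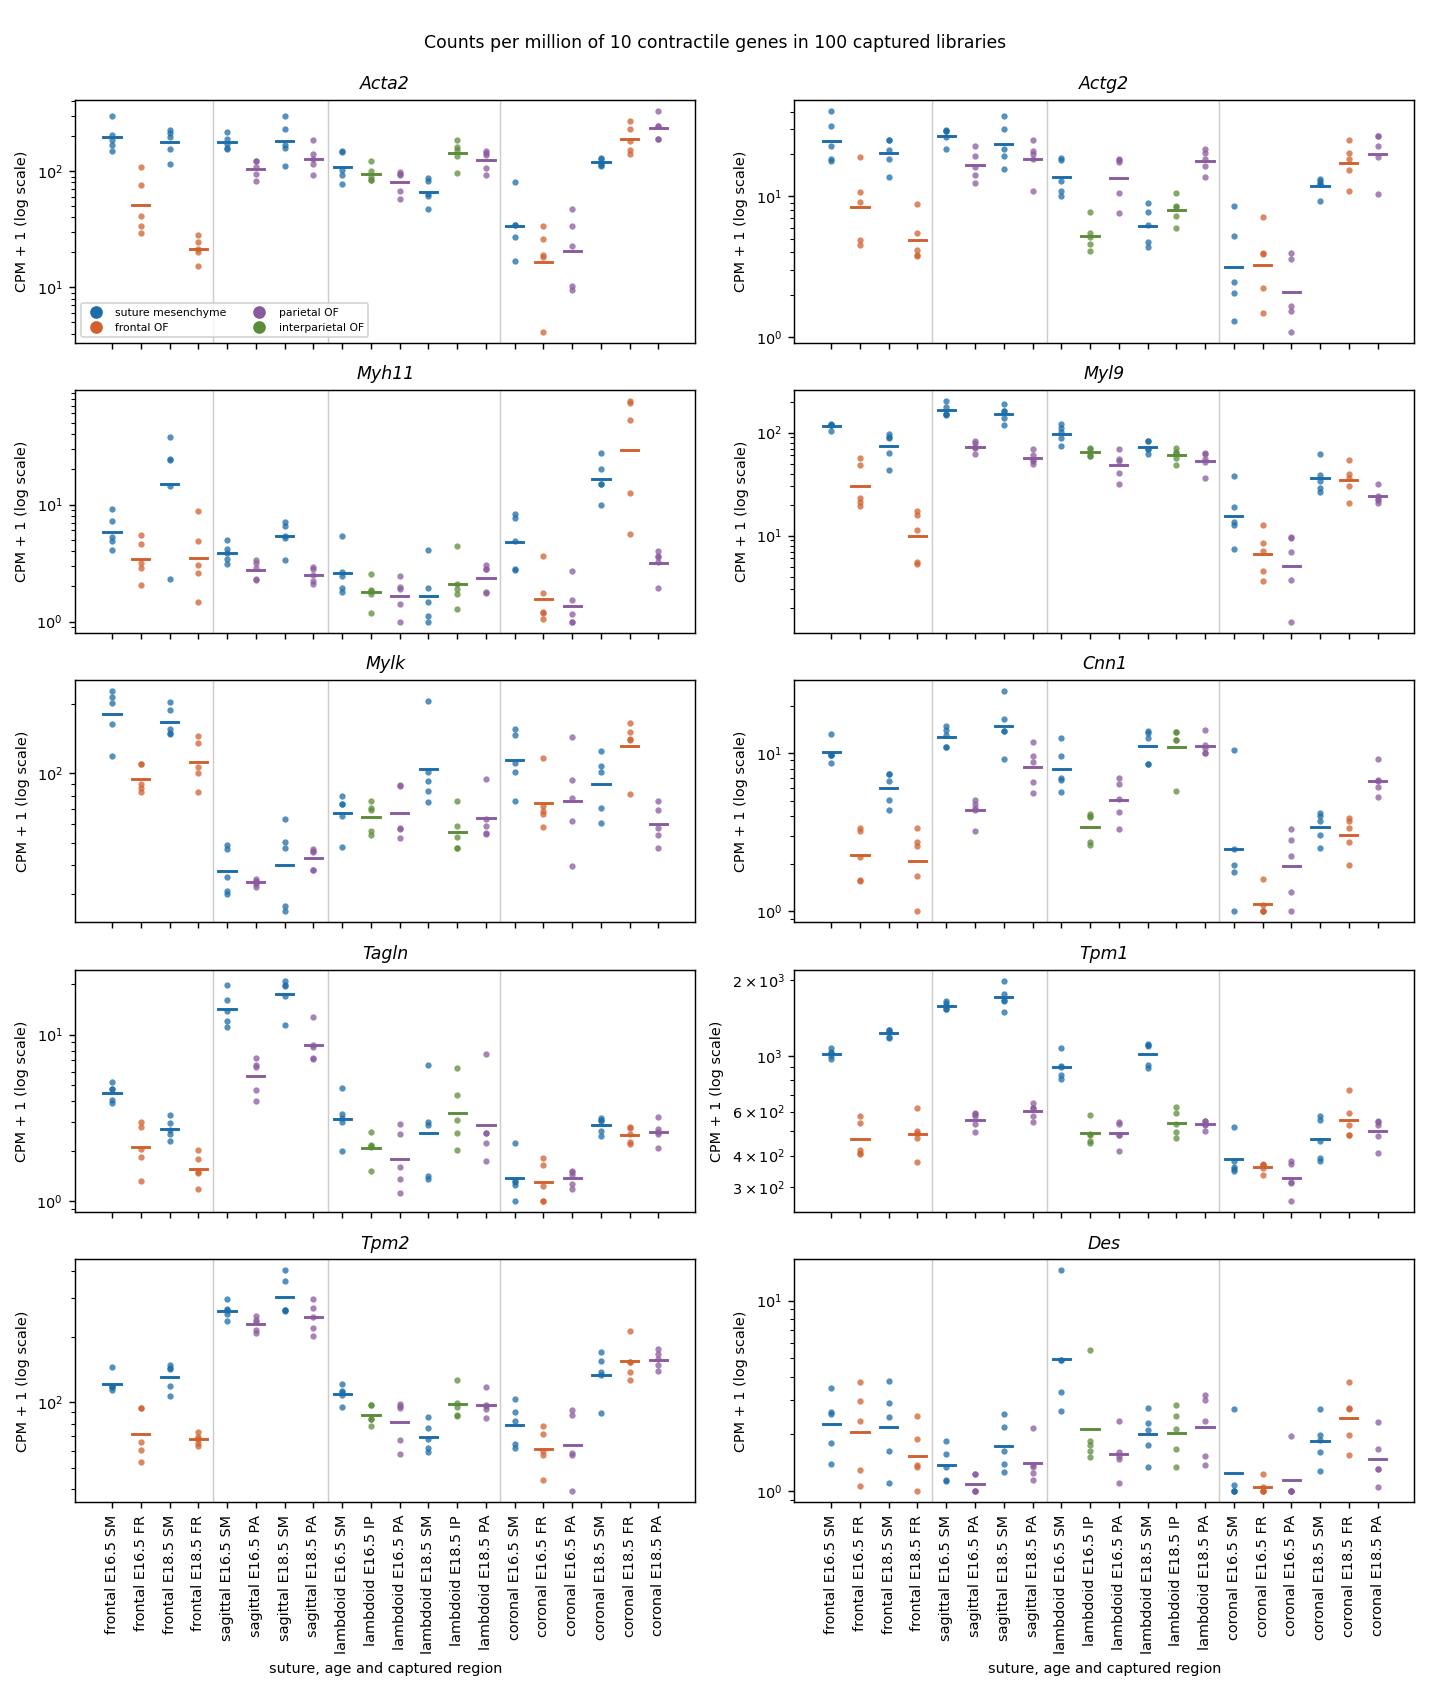
Level of each of the 10 genes in the 20 captured groups, as CPM + 1 on a log scale, with 1 point for each of 5 libraries and a bar at the mean of the log values. Tpm1 lies at or above 262 CPM in every library, whereas Tagln and Des are at or below 1.71 CPM in every library of the coronal groups of E16.5.

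Averaged over the 4 sutures and both ages, each suture and age weighted equally and its OFs averaged first, SM had higher levels than OF for all 10 genes (heat map of SM and OF). By edgeR's quasi-likelihood test 10 of 10 were higher at an adjusted p under 0.05, where 55.4% of all genes tested were called in either direction and 27.6% were higher. The median log2 difference of the 10 genes was 0.90, against 0.036 over all genes. Differences are on the log2 scale and are given with their standard error (SE). Cnn1 had the largest, at 1.35 ± 0.19, adjusted p = 1.3e-09. The myosin genes followed with Myl9 at 1.31 ± 0.11, adjusted p = 8.62e-20, and Myh11 at 1.25 ± 0.23, adjusted p = 2.06e-06. Des rose by 0.99 ± 0.32 (adjusted p = 0.00574), a call that ended when all libraries of replicate 5 were left out (log2 difference 0.72, adjusted p = 0.079). Tpm1 rose by 0.91 ± 0.038, Tagln by 0.88 ± 0.19, Acta2 by 0.69 ± 0.10, Actg2 by 0.56 ± 0.14, Mylk by 0.41 ± 0.077 and Tpm2 by 0.28 ± 0.054.

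Other genes of smooth muscle split in this mean comparison. Of 32 partner genes, which serve contraction, calcium handling and relaxation, 31 were tested, 15 were higher and 5 lower in SM, with a median log2 difference of 0.25. Prkg1, the cGMP-dependent kinase that relaxes smooth muscle, was higher by 1.46 ± 0.075 and Ednra, an endothelin receptor, by 1.08 ± 0.063 (log2 ± SE), whereas Kcnma1, a calcium-gated potassium channel, was at -3.59 ± 0.11 and Npnt, a matrix ligand of integrins, at -2.65 ± 0.088. Of 23 broadly used actomyosin genes, which nearly every cell needs for its shape, 2 were higher and 16 lower in SM (median -0.23). Among them Tagln2, a relative of Tagln found outside muscle, was at -1.13 ± 0.079, Rhoa, a small GTPase that raises tension, at -0.53 ± 0.04, Vcl, a protein of adhesion sites, at -0.61 ± 0.058, and Myh10, a nonmuscle myosin heavy chain, at 0.40 ± 0.041. The contractile genes and the general actomyosin genes thus differed from the same OFs in opposite directions in most members. Of 12 tested SRF and myocardin cofactors and targets, 3 were higher and 4 lower. Klf4, which represses smooth muscle genes, was at -1.93 ± 0.071, Myocd, which encodes myocardin, at -1.65 ± 0.26, Fhl1 at -0.64 ± 0.061 and Tgfb1i1, an adhesion-site cofactor, at 0.34 ± 0.047.

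Marker genes of other cells moved in the same mean comparison, and their part in the differences was not tested. Of 14 mural cell markers 8 were higher and 3 lower in SM. Pdgfrb, the receptor of mural cells, was at 0.92 ± 0.068 and Notch3 at 0.81 ± 0.08, while Cspg4, a pericyte proteoglycan, was at -1.16 ± 0.093 and Ndufa4l2 at -1.25 ± 0.13. Endothelial markers were higher in 1 of 10 (Pecam1, 0.22 ± 0.086) and lower in 0, macrophage markers higher in 9 of 11, osteoblast markers lower in 8 of 9 and proliferation markers lower in 8 of 8. Of markers of mesenchyme and skin, ectocranial mesenchyme had 5 of 7 higher, hypodermis 4 of 8, dura mater 3 of 6 and chondrocyte markers 4 higher and 2 lower of 7. Neuron markers had 2 of 5 higher, Schwann cell markers 1 of 4, mast cell markers 2 of 5 and neutrophils 1 of 1 lower. Of 7 erythroid, 5 osteoclast and 2 keratinocyte markers tested, 0 were called by edgeR and 0 had an unadjusted p under 0.05. Of 10 skeletal muscle markers tested, 2 were higher (Myh8, 4.41 ± 0.48, and Tnnt3, 1.17 ± 0.27) and 1 lower (Actn2, -1.0 ± 0.39).

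**Figure D2:**
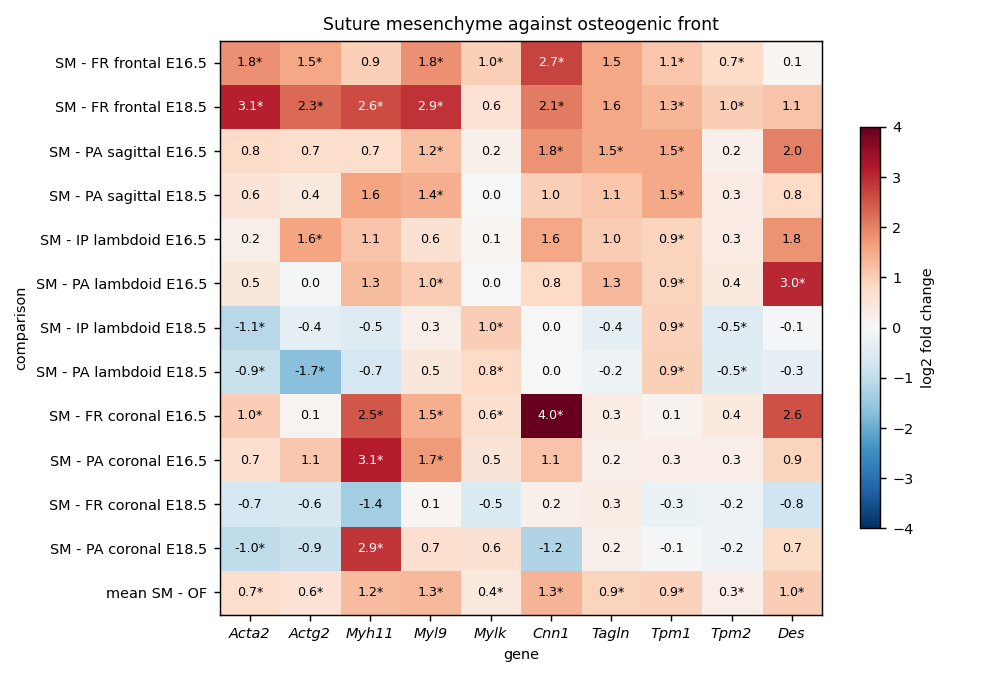
Log2 difference of SM minus OF for each gene (columns) in the 12 comparisons of a suture, age and OF, and in the mean that weights each suture and age equally (rows), as fitted by edgeR, with an asterisk at an adjusted p under 0.05 and colour limits at 4. Tpm1 is called in the 8 comparisons outside the coronal suture and in 0 of the 4 coronal ones.

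In the frontal suture 7 of 10 genes were higher in SM than in FR at each age and 0 were lower, where 7.91% of all genes were called at E16.5 and 11.1% at E18.5. Acta2 had 203, 168, 185, 300.0 and 147 CPM in the SM libraries of E16.5 (replicates 1 to 5) and 32.8, 28.2, 75.7, 40.5 and 108 CPM in FR. Every SM library exceeded every FR library, and the log2 difference was 1.81 ± 0.33, adjusted p = 1.58e-05. At E18.5 the SM libraries held 210.0, 155, 115, 197 and 227 CPM of Acta2 and the FR libraries 27.4, 19.2, 20.6, 23.8 and 14.2 CPM, again without overlap, with means of 181 ± 45.6 and 21.1 ± 4.97 CPM (SD, n = 5). This log2 difference of 3.10 ± 0.35, adjusted p = 1.45e-11, was the largest of Acta2 in the 12 comparisons. Myl9 stood at 96.3, 62.5, 42.1, 88.6 and 88.0 CPM in SM of E18.5 and at 14.9, 4.29, 16.4, 10.3 and 4.53 CPM in FR, which did not overlap (log2 difference 2.90 ± 0.35, adjusted p = 2.44e-10). Its difference at E16.5 was 1.81 ± 0.33, adjusted p = 1.68e-05. Cnn1 was measured at 7.71, 8.68, 12.2, 8.67 and 8.78 CPM in SM of E16.5 against 0.585, 0.561, 2.38, 1.2 and 2.24 CPM in FR, so the libraries were separate at a low level, and its log2 differences were 2.71 ± 0.60, adjusted p = 0.000583 at E16.5, and 2.06 ± 0.61, adjusted p = 0.0151 at E18.5. The latter missed the threshold without replicate 4 (adjusted p = 0.139). Tpm1 stood at 1022 ± 38.0 CPM in SM and 470.3 ± 80.7 CPM in FR at E16.5 (SD, n = 5), and its log2 differences of 1.12 ± 0.12 and 1.32 ± 0.12 were the most precise of the set.

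The remaining calls of the frontal suture were of the visceral actin, the other tropomyosin, the kinase and the myosin heavy chain. Actg2 was higher in SM by 1.55 ± 0.44 at E16.5 (adjusted p = 0.0124) and by 2.26 ± 0.46 at E18.5 (adjusted p = 0.000163). The E16.5 call was lost without replicate 1 or 4 (1.32 and 1.33). Tpm2 was higher by 0.74 ± 0.16 and 0.97 ± 0.17. Mylk was called at E16.5, at 0.97 ± 0.23, adjusted p = 0.00217, and had 0.57 ± 0.23 at E18.5, adjusted p = 0.11. Myh11 had 0.95 ± 0.68 at E16.5 (adjusted p = 0.57) and was called at E18.5, with SM libraries at 22.9, 1.31, 13.4, 36.9 and 23.7 CPM and FR libraries at 2.05, 7.74, 3.92, 1.61 and 0.469 CPM. SM replicate 2 lay below 4 of the 5 FR libraries, and the log2 difference of 2.62 ± 0.71, adjusted p = 0.00607, missed the threshold under limma voom and without replicate 4 or 5 (2.07 and 2.28). Mural markers summed to 475 to 697 CPM in SM, with the lowest sum in replicate 2, and to 329.7 to 502 CPM in FR. In FR the lowest mural sum was also in replicate 2, which had the highest Myh11 of its group. The part of mural cells in this difference was not tested. Tagln had 1.54 ± 0.56 at E16.5, adjusted p = 0.0809, and reached 1.71 with the replicate number as a block (adjusted p = 0.0401).

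In the sagittal suture 4 of 10 genes were higher in SM than in PA at E16.5 (17.7% of all genes called) and 2 of 10 at E18.5 (25.3%), and 0 were lower. Tpm1 held 1534, 1577, 1649, 1531 and 1623 CPM in the SM of E16.5 and 585, 532, 591, 497 and 575 CPM in PA. The regions lay far apart in every library, with a log2 difference of 1.51 ± 0.12, adjusted p = 2.36e-19, and one of 1.52 ± 0.12, adjusted p = 1.43e-19 at E18.5, where the means were 1717 ± 185 and 600.3 ± 40.0 CPM (SD, n = 5). Skeletal muscle markers also lay higher in SM without overlap, summing to 89.3 to 104 CPM in SM and 20 to 27.8 CPM in PA at E16.5, and to 36.4 to 44.5 and 14.2 to 25.3 CPM at E18.5. Their part in the Tpm1 result was not tested. Myl9 measured 152, 175, 202, 147 and 152 CPM in SM of E16.5 and 69.5, 61.6, 78.0, 71.6 and 81.8 CPM in PA. Here too each SM library was above each PA library, and the log2 difference was 1.19 ± 0.32, adjusted p = 0.00354, with 1.44 ± 0.32, adjusted p = 0.000237 at E18.5. Cnn1 at E16.5 had means of 11.7 ± 1.77 CPM in SM and 3.40 ± 0.696 CPM in PA (SD, n = 5) and a log2 difference of 1.79 ± 0.57, adjusted p = 0.0171, which missed the threshold without replicate 4 or 5 (1.92 and 1.79). At E18.5 its log2 difference was 0.97 ± 0.55, adjusted p = 0.215, and its libraries overlapped. Tagln at E16.5 ran from 10.1 to 18.9 CPM in SM and from 3.01 to 6.23 CPM in PA (log2 difference 1.51 ± 0.55, adjusted p = 0.0426). This call was lost in 8 of 17 alternatives, among them those without replicate 2, 3, 4 or 5 (1.48, 1.51, 1.50 and 1.53). Acta2, at 178 ± 26 CPM in SM and 105 ± 17.4 CPM in PA of E16.5, had a log2 difference of 0.76 ± 0.32, adjusted p = 0.0912, and at E18.5 one of 0.55 ± 0.32, adjusted p = 0.213, and the vascular actin was thus not called in the sagittal suture.

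The lambdoid suture showed genes that moved apart from one another. Both comparisons of an age use the same SM libraries. At E16.5, 2 of 10 genes were higher in SM than in IP (11.2% of all genes called) and 3 of 10 than in PA (23.1%), with 0 lower. At E18.5, 2 were higher and 2 lower against IP (19.6%), and 2 higher and 3 lower against PA (24.6%). Tpm1 was higher in SM in all 4 comparisons, at 1094, 1103, 1115, 917 and 891 CPM in SM of E18.5, 590.0, 624, 494, 469 and 534 CPM in IP and 549, 530.3, 535, 502 and 551 CPM in PA. The lowest SM library exceeded the highest OF library, and the log2 differences were 0.92 ± 0.11, adjusted p = 3.61e-10, against IP, and 0.94 ± 0.11, adjusted p = 1.13e-10, against PA. Acta2 went the other way at that age. SM held 87.2, 60.2, 46.1, 62.1 and 81.7 CPM, IP 151, 161, 135, 96.4 and 185 CPM and PA 144, 138, 91.1, 105 and 148 CPM, so all SM libraries were below all OF libraries. The log2 difference was -1.11 ± 0.32, adjusted p = 0.00716, against IP, a call lost without replicate 2 or 3 (-0.98 and -1.0), and -0.89 ± 0.32, adjusted p = 0.0309, against PA, a call lost in 7 of 17 alternatives, among them those without replicate 2, 3, 4 or 5 (-0.77, -0.84, -0.88 and -0.86). At E16.5 Acta2 had differences of 0.24 ± 0.32 (adjusted p = 0.766) and 0.47 ± 0.32 (adjusted p = 0.319) with overlapping libraries. Actg2, the second smooth muscle actin, had 7.98, 5.26, 3.75, 3.36 and 6.76 CPM in SM of E18.5 and 17.6, 20.7, 15.5, 12.9 and 19.4 CPM in PA, without overlap (log2 difference -1.67 ± 0.45, adjusted p = 0.00313). At E16.5 it was higher in SM than in IP, at 13.1 against 4.39 CPM (log2 difference 1.58 ± 0.45, adjusted p = 0.0105), a call lost without replicate 4 (1.42).

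Among the other lambdoid calls, Mylk was higher in SM of E18.5 by 1.00 ± 0.24 against IP (adjusted p = 0.000768) and by 0.79 ± 0.24 against PA (adjusted p = 0.0077), the latter lost without replicate 3 (0.66), whose SM library held 206 CPM. Tpm2 was lower in SM of E18.5, at 69.2 ± 10.7 CPM against 98.1 ± 16 CPM in IP and 97.1 ± 12.2 CPM in PA (SD, n = 5). Its log2 differences of -0.50 ± 0.17, adjusted p = 0.0206, and -0.49 ± 0.17, adjusted p = 0.0211, were lost in 10 and 8 of 17 alternatives, the one against PA shrinking to -0.32 without replicate 4 (adjusted p = 0.264). Myl9 was higher in SM than in PA at E16.5 (1.00 ± 0.32, adjusted p = 0.0142) and missed the threshold without replicate 4 (1.02). Des was called once, in SM against PA at E16.5, with SM libraries at 3.87, 1.64, 3.90, 2.33 and 13.4 CPM and PA libraries at 0.478, 0.597, 0.103, 0.536 and 1.35 CPM. SM replicate 5 stands out. Skeletal muscle markers summed to 64.6 to 839.6 CPM in these SM libraries, with the highest sum in replicate 5, and to 20.3 to 33.3 CPM in PA, without overlap, and their part in the differences from PA was not tested. The log2 difference of 3.01 ± 1.02, adjusted p = 0.0207, became 2.28 without that library (adjusted p = 0.112), and the call was also lost without replicate 3 or 5 (2.90 and 2.81) of all groups. Replicate 4 of IP, at 4.49 CPM of Des, was likewise the library of its group with the most skeletal muscle markers, at 298 CPM. With the replicate block, Cnn1 was also called against IP at E16.5 (log2 difference 1.55, adjusted p = 0.0462), and Tpm2 against PA at E16.5 (0.43, adjusted p = 0.037).

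In the coronal suture of E16.5, 5 of 10 genes were higher in SM than in FR (30.3% of all genes called) and 2 of 10 than in PA (35.6%), and 0 were lower. Myh11, the smooth muscle myosin, had 1.77, 7.23, 6.65, 3.89 and 1.81 CPM in SM, 0.748, 0.0512, 2.66, 0.201 and 0.176 CPM in FR and 1.70, 0.164, 0.523, 0 and 0 CPM in PA. SM stood above PA in every library and overlapped FR through FR replicate 3, and the log2 differences were 2.48 ± 0.72, adjusted p = 0.00579, against FR, and 3.13 ± 0.75, adjusted p = 0.000531, against PA, the latter 4.87 without replicate 1. As 2 of the 5 PA libraries held 0 counts, the size of the latter is uncertain, and the call against FR was lost with the second libraries alone (1.94, adjusted p = 0.104). Mural markers summed to 420.0 to 1154 CPM in SM, highest in replicates 2 and 3, to 222 to 681 CPM in FR and to 246 to 441 CPM in PA. Their order did not follow Myh11 throughout. FR replicate 2 summed to 601 CPM with the lowest Myh11 of its group. SM replicate 5 summed to 627 CPM with less Myh11 than replicate 4 at 466 CPM. The part of mural cells in the Myh11 differences was not tested. Myl9 was higher by 1.45 ± 0.34 and 1.69 ± 0.34 (adjusted p = 0.000482 and 3.9e-05), from means of 17.1 ± 11.8 CPM in SM, 6.25 ± 3.58 CPM in FR and 5.24 ± 3.61 CPM in PA (SD, n = 5). Cnn1 was low, at 0, 9.49, 0.956, 1.49 and 0.786 CPM in SM and 0, 0.614, 0, 0.10 and 0 CPM in FR. A single SM library, replicate 2, held most of its SM counts. It was called with an adjusted p of 4e-06, but FR was at 0 in 3 of its 5 libraries, so the fitted value is not read as a size. With the second libraries alone the call was lost (adjusted p = 0.0579). Acta2 in SM had 25.9, 33.5, 33.7, 15.9 and 80.3 CPM and in FR 3.17, 25, 17.2, 32.5 and 18 CPM, with overlap. Its log2 difference of 0.98 ± 0.32, adjusted p = 0.0156, missed the threshold without replicate 1 or 5 (0.79 and 0.49) and with the second libraries in place of the first or alone (0.86 and 0.84), and SM replicate 5 was the highest library by far. Mylk was higher than in FR by 0.63 ± 0.23 (adjusted p = 0.0308), a call lost in 7 of 17 alternatives, among them those without replicate 1, 3 or 5 (0.59, 0.45 and 0.62). All 7 of these coronal calls at E16.5 were lost when each suture and age was fitted by itself. With the replicate block, Acta2 (0.81, adjusted p = 0.033) and Tpm1 (0.26, adjusted p = 0.0435) were also called against PA.

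At E18.5 Acta2 was lower and Myh11 higher in coronal SM than in PA, and neither gene was called against FR. Against FR, 0 of 10 genes were called by edgeR (3.46% of all genes), 4 had an unadjusted p under 0.05, and DESeq2 and limma voom called 0. Against PA, 1 was higher and 1 lower (18%). Acta2 had 110.0, 115, 112, 129 and 126 CPM in SM, 151, 267, 140.0, 182 and 229 CPM in FR and 188, 245, 329, 243 and 189 CPM in PA. All of these SM libraries lay below all of these OF libraries. Among the second libraries, FR replicate 3 held 132 CPM, below the SM libraries at 134, 142 and 159 CPM. The log2 difference of the first libraries was -1.01 ± 0.32, adjusted p = 0.0163, against PA, missing the threshold without replicate 2 or 3 (-0.94 and -0.81), and -0.71 ± 0.32, adjusted p = 0.27, against FR. Myh11 had 13.9, 8.88, 14.1, 19.2 and 26.8 CPM in SM, 75.9, 11.4, 4.65, 51.7 and 72.4 CPM in FR and 2.60, 3.04, 0.923, 2.59 and 2.21 CPM in PA. FR spanned from below the lowest SM library to far above the highest, whereas every PA library was below every SM library. The log2 difference was 2.86 ± 0.71, adjusted p = 0.00158, against PA and -1.38 ± 0.66, adjusted p = 0.33, against FR. Mural markers summed to 562 to 915 CPM in SM and 505 to 771 CPM in PA, with overlap. Endothelial markers summed to 255 to 324 CPM in SM and 59.6 to 96.8 CPM in PA, without overlap. The part of either list in the Myh11 difference was not tested. Mylk had 0.62 ± 0.23 against PA (adjusted p = 0.0507), which the replicate block moved to 0.59 (adjusted p = 0.0389). Cnn1 was lower in each first SM library than in each first PA library, at 1.50 to 3.16 against 4.27 to 8.19 CPM, with a log2 difference of -1.22 ± 0.56 (adjusted p = 0.129). The second libraries overlapped, with PA replicate 1 at 2.76 CPM and SM replicate 3 at 2.80 CPM.

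The pattern of Myh11 led to a comparison of the coronal OFs with each other, which was added after the values were seen. FR against PA at E18.5 had 2 of 10 genes higher and 0 lower (5.44% of all genes called). They were Myh11 (4.24 ± 0.75, adjusted p = 4.77e-05) and the light chain kinase Mylk (1.17 ± 0.24, adjusted p = 0.00044), while Acta2 had -0.30 ± 0.31 (adjusted p = 0.706). In the same comparison 9 of 14 mural cell markers and 10 of 10 endothelial markers were higher in FR and 0 were lower, with medians of 1.76 and 1.99, against -0.04 over all genes. The sum of the 14 mural markers in replicates 1 to 5 was 1228, 905, 758, 1259.7 and 1203 CPM in FR and 505, 656, 632, 645 and 771 CPM in PA. FR replicate 3, with the lowest Myh11 of its group, also had the lowest mural sum. The 10 endothelial markers summed to 432, 176, 291, 415 and 361 CPM in FR and to 59.6 to 96.8 CPM in PA. The part of vessels in the Myh11 difference was not tested. Partner genes of smooth muscle were higher in FR in 9 of 31 and 0 of 23 broadly used actomyosin genes were called by edgeR, 4 of them with an unadjusted p under 0.05. Second libraries of FR replicates 1, 3 and 5 held 96.1, 2.16 and 62.2 CPM of Myh11, where the first held 75.8, 4.64 and 72.4 CPM on the same scale, so the low replicate 3 was low in both. Second libraries of PA replicates 1, 3 and 4 held 0.789, 0 and 0.428 CPM.

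Whether SM and OF differed by another amount in the coronal suture was tested directly, as the mean of its 4 comparisons less the mean of the other 8. Each comparison had equal weight, so the lambdoid suture, with 2 OFs, counted for more than the frontal or sagittal suture. Of 10 genes 0 were higher and 2 lower (20.8% of all genes called). Tpm1 was the clear case, with -1.13 ± 0.085, adjusted p = 2.8e-19, kept in 16 of 16 alternatives. In the coronal suture its SM libraries of E18.5 held 572, 553, 457, 392 and 379 CPM, FR 528, 732, 588, 485 and 482 CPM and PA 531, 544, 547, 477 and 411 CPM. These groups overlapped, and the 4 coronal log2 differences of 0.13, 0.26, -0.26 and -0.092 compare with 0.88 to 1.52 in the other sutures. Acta2 was also lower, at -0.63 ± 0.23, adjusted p = 0.0416, but this call was lost in 8 of 16 alternatives, among them the replicate block (-0.58, adjusted p = 0.0514) and the fits without replicate 2, 3 or 4 (-0.48, -0.61 and -0.50). Myh11 had 0.89 ± 0.50 (adjusted p = 0.204) and, with the block, 1.53 (adjusted p = 0.0334). In the same contrast 4 of 14 mural and 8 of 10 endothelial markers had a higher difference, as did 5 of 9 osteoblast markers. The part of these cell types in the results was not tested.

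Comparisons between sutures rest on libraries of different sets, so the complete-suture libraries were examined first. Each suture of E18.5 was sequenced once in each of 4 sets, with the title codes C, IF, L and S, from 1 replicate each and without a test. Acta2 was close between sets, at 157, 151, 138 and 158 CPM in complete coronal suture (sets C, IF, L and S), 189, 189, 170.0 and 167 CPM in frontal, 326, 309.7, 271 and 295 CPM in sagittal and 103, 106, 111 and 95.5 CPM in lambdoid suture. The sutures kept the order sagittal, frontal, coronal and lambdoid in every set. Tpm1 had 646 to 748 CPM in coronal, 1169.6 to 1311 CPM in frontal and 1352 to 1559 CPM in sagittal suture. Tpm2 and Tagln, in contrast, changed with the set. Tpm2 in coronal suture had 154, 87.4, 81.3 and 209 CPM, and Tagln had 2.68, 1.25, 1.02 and 3.64 CPM, both higher in sets C and S. The largest spread of a suture between sets, on the log2 scale, was 2.22 for Tagln, 1.78 for Des, 1.37 for Tpm2, 0.27 for Acta2 and 0.25 for Tpm1. Within a set, the log2 difference of coronal minus frontal suture was -0.89 to -0.81 for Tpm1, -0.32 to -0.076 for Acta2, -1.38 to -0.93 for Myl9 and -1.0 to -0.63 for Mylk. That of coronal minus sagittal was -1.17 to -1.0 for Tpm1, -1.05 to -0.90 for Acta2, -1.76 to -1.45 for Myl9, -0.18 to 0.11 for Mylk and -2.04 to -1.37 for Actg2. Skeletal muscle markers summed to 813 to 1085 CPM in complete coronal suture and 2063 to 2741 CPM in lambdoid suture, against 22.9 to 37.4 CPM in frontal suture, and Des was higher in coronal than in frontal suture by 0.79 to 2.01 within sets.

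**Figure D3:**
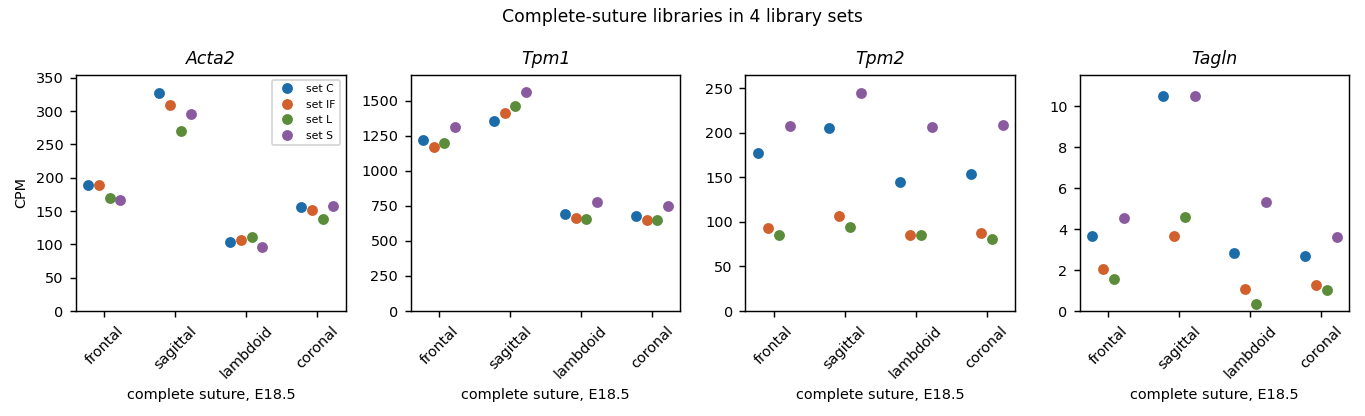
CPM of Acta2, Tpm1, Tpm2 and Tagln in complete sutures of E18.5, 1 point for each library, by suture and by library set (C, IF, L or S). The 4 sets lie close together for Acta2 and Tpm1, while Tpm2 and Tagln are higher in sets C and S.

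Second coronal libraries gave the same kind of check. At each age 9 second libraries could be set beside the first library of the same replicate and region. Acta2 was higher in the second library in 9 of 9 pairs at E16.5, with a median log2 difference of 0.91, and in 8 of 9 at E18.5 (0.30). Myl9 was higher in 9 of 9 at both ages (1.50 and 1.19), as were Tpm2 (0.94 and 0.93) and Tagln (1.19 and 1.26). Actg2 (1.26) and Tpm1 (0.35) were higher in 9 of 9 at E16.5, and Mylk was lower in 8 of 9 (-0.73). The coronal levels of these genes at E16.5 therefore depended on the library, and the calls between sutures below were also made with the second libraries.

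Coronal SM had lower levels of most of the genes than frontal SM at E16.5 and than sagittal SM at both ages, but not than frontal SM at E18.5 (heat map of the coronal comparisons). At E16.5, 8 of 10 were lower than in frontal SM and 0 higher (41.3% of all genes called), and 7 were lower and 1 higher than in sagittal SM (50.3%). At E18.5, 3 were lower than in frontal SM and 0 higher (24%), and 6 were lower and 2 higher than in sagittal SM (35.9%). Tpm1 was lower in all 4. At E16.5 it had 354, 360.0, 346, 379.5 and 519.7 CPM in coronal SM, where frontal SM ran from 975 to 1075 CPM and sagittal SM from 1531 to 1649 CPM, without overlap. The log2 differences were -1.38 ± 0.12, adjusted p = 1.72e-17, against frontal and -2.01 ± 0.12, adjusted p = 1.72e-26, against sagittal at E16.5. Those of E18.5 were -1.39 ± 0.12 and -1.87 ± 0.12. These 4 calls of Tpm1 were kept in all 17 alternatives, and the within-set values of complete suture had the same sign. At E16.5 skeletal muscle markers summed to 39.5 to 65.6 CPM in coronal, 49.2 to 63.6 CPM in frontal and 89.3 to 104 CPM in sagittal SM. At E18.5 the coronal and sagittal sums overlapped. Osteoblast markers at E16.5 summed to 303 to 936 CPM in coronal, 64.6 to 112 CPM in frontal and 50.1 to 103 CPM in sagittal SM. The part of either in the Tpm1 results was not tested. Acta2 was lower at E16.5 (-2.41 ± 0.33, adjusted p = 5.18e-09, against frontal, and -2.24 ± 0.33, adjusted p = 1.54e-08, against sagittal) and had -0.61 ± 0.32 and -0.70 ± 0.32 at E18.5 (adjusted p = 0.162 and 0.0753). With the second libraries alone the E16.5 values were -1.53 and -1.31. Myl9 was lower in all 4 comparisons. At E16.5 it had -2.75 ± 0.34 against frontal and -3.27 ± 0.35 against sagittal SM, which the second libraries alone reduced to -0.76 and -1.24, and against frontal SM at E18.5 (-1.03 ± 0.32, adjusted p = 0.011) the second libraries alone gave 0.053, and the call was lost without replicate 4 or 5 (-0.88 and -0.91). Mylk was lower than in frontal SM (-0.66 and -0.87 at E16.5 and E18.5) and higher than in sagittal SM (1.65 and 1.15). In complete sutures the coronal and sagittal levels of Mylk differed in both directions between sets, as given above. The calls of Mylk against frontal SM were lost with a term for the library set (-0.46 and -0.63, adjusted p = 0.314 and 0.214). The one of E16.5 was also lost without replicate 5 (-0.56). That against sagittal SM at E18.5 was lost with the set term and second libraries alone (0.85). The set term joins the captured to the complete-suture libraries. It assumes that the codes C, IF, L and S mark the sets of the coronal, frontal, lambdoid and sagittal captured libraries. The labels do not say so. The term was estimated from complete sutures of E18.5 alone, also for comparisons at E16.5. First and second coronal libraries were each placed in set C, although their levels of several genes differed as given above. Myh11 was higher than in sagittal SM at E18.5 (1.87 ± 0.68, adjusted p = 0.0235), a call lost with a term for the library set (2.35, adjusted p = 0.0747) and without replicate 1, 4 or 5 (1.77, 1.84 and 1.70). Mural markers summed to 562 to 915 CPM in coronal and 417 to 525 CPM in sagittal SM of E18.5, without overlap. At E16.5 they summed to 420 to 1154 CPM in coronal and 329 to 373 CPM in sagittal SM. In frontal SM they overlapped the coronal sums, at 489 to 780 CPM at E16.5 and 475 to 697 CPM at E18.5. Their part in the Myh11 and Mylk results was not tested.

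For the genes that changed with the library set, the difference between sutures depended on the libraries used. Tagln in SM had -4.95 ± 0.65 and -3.16 ± 0.58 against sagittal SM (coronal mean 1.87 CPM, sagittal mean 16.8 CPM at E18.5) and -3.00 ± 0.60 against frontal SM at E16.5, and these became -1.96, -0.64 and -1.66 with a set term and the second libraries alone, none of the 3 called by edgeR (adjusted p = 0.0713, 0.589 and 0.16). Without the set term, the second libraries alone gave -0.48 against frontal SM (adjusted p = 0.541). Tpm2 had -0.61 ± 0.16 against frontal SM at E16.5, but the second libraries in place of the first gave 0.093. Against sagittal SM it had -1.72 ± 0.17 and -1.18 ± 0.17, which became -0.27 and 0.034 with the set term and second libraries alone, neither of them called by edgeR (adjusted p = 0.528 and 0.939). Actg2 was lower at E16.5, at -3.10 ± 0.47 and -3.15 ± 0.47, in all 17 alternatives, with sizes down to -1.37 and -1.38 with the second libraries alone. It was also lower at E18.5 against sagittal SM, at -1.12 ± 0.43, in 8 of 17, with the call lost without replicate 1, 2, 3 or 4 (-1.17, -1.21, -0.94 and -1.03). Cnn1 was lower than in sagittal SM at both ages (-2.19 ± 0.58 and -2.55 ± 0.58), with each call kept in 17 of 17 alternatives, and lower than in frontal SM at E16.5 (-1.84 ± 0.57), a call lost without replicate 3 or 5 (-1.52 and -1.63). Without replicate 2, which had the only coronal SM library over 2 CPM, that difference was -3.56. The difference from sagittal SM at E16.5 was -3.81 in that fit.

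Bone edges of one kind could also be compared between sutures. At E16.5 the coronal FR had 8 of 10 genes lower and 0 higher than the FR of the frontal suture (33.8% of all genes called), and the coronal PA had 8 lower and 1 higher, Mylk, than the sagittal PA (42.9%). At E18.5 the coronal FR had 5 higher and 0 lower (17%), and the coronal PA 1 higher and 3 lower (27.1%). The FR of E18.5 showed the higher actin most plainly. Acta2 had 151, 267, 140.0, 182 and 229 CPM in coronal FR and 27.4, 19.2, 20.6, 23.8 and 14.2 CPM in frontal-suture FR. The lowest coronal library was several times the highest frontal one, with a log2 difference of 3.20 ± 0.35, adjusted p = 1.41e-11, kept in all 17 alternatives and 3.18 with a set term. Myh11 (3.75 ± 0.74), Actg2 (2.04 ± 0.46), Myl9 (1.80 ± 0.34) and Tpm2 (1.22 ± 0.17) were higher too, and the last pair lost the call with the set term (1.23 and 0.35). In that comparison 17 of 23 broadly used actomyosin genes, 5 of 14 mural markers and 2 of 10 endothelial markers were higher and 0 lower, and 5 of 9 osteoblast markers were lower. In every set, complete coronal suture of E18.5, not split into SM and OF, had less Acta2, Myh11, Actg2 and Myl9 than complete frontal suture. The log2 differences within sets were -0.32 to -0.076, -1.16 to -0.051, -1.27 to -0.61 and -1.38 to -0.93 in that order. For Tpm2 they were -0.21 to 0.0069. At E16.5 the lower levels depended on the libraries used. For FR, the differences of Acta2 (-1.57 ± 0.33), Actg2 (-1.66 ± 0.45) and Tpm1 (-0.39 ± 0.11) became -0.54, -0.60 and 0.0069 with the second libraries alone, and none of these 3 was then called by edgeR. Single replicates also moved some of them. The Actg2 call was lost without replicate 5 (-0.92) and that of Tpm1 without replicate 3 (-0.31). Tagln had -1.77 ± 0.60, lost without replicate 1, 3 or 5 (-1.54, -1.40 and -1.27), and 0.46 with the second libraries alone. Myh11 had -1.79 ± 0.72 (adjusted p = 0.0441), a call lost without replicate 1, 2, 4 or 5 (-1.97, -1.18, -1.60 and -1.63), and -3.04 without replicate 3. Cnn1 and Des were each at 0 in 3 of the 5 coronal FR libraries of E16.5, so their fitted values are not read as sizes, and both calls were lost with the second libraries alone. Myl9 was lower in all 17 alternatives, at -2.39 ± 0.34 in FR and -3.77 ± 0.36 in PA, the smallest sizes being -0.68 and -1.57 with the second libraries alone. For PA at E16.5, Myh11 had -1.88 ± 0.74 (adjusted p = 0.0316) a call lost without replicate 2, 3, 4 or 5 (-1.63, -1.75, -1.62 and -1.51), and -3.48 without replicate 1, from a coronal group with 2 libraries at 0. Cnn1 in PA had -1.55 ± 0.58, lost without replicate 3 or 4 (-1.12 and -1.23). At E18.5 Acta2 was higher in coronal PA (0.87 ± 0.32, adjusted p = 0.0318), a call kept in 5 of 17 alternatives and lost without replicate 2, 3, 4 or 5 (0.82, 0.85, 0.79 and 0.76). The lower Myl9 (-1.28), Tagln (-2.25) and Tpm2 (-0.66) turned to 0.22, 0.34 and 0.69 with the set term and second libraries.

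**Figure D4:**
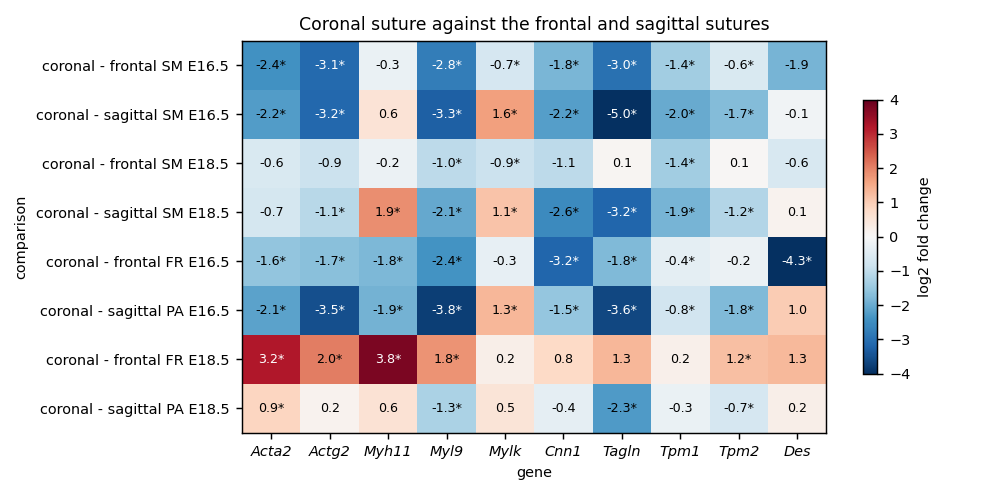
Log2 difference of the coronal suture minus the frontal or sagittal suture for each gene (columns) in SM and in the matching OF at each age (8 rows), from edgeR, with an asterisk at an adjusted p under 0.05. Tpm1 is lower in all 4 SM rows, and the frontal OF rows change from lower at E16.5 to higher at E18.5 for Acta2, Myh11, Actg2 and Myl9.

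Between the ages, few of the genes changed in SM outside the coronal suture. Of 10 genes, 0 were called by edgeR in frontal SM (2.33% of all genes called) and 0 in sagittal SM (1.12%), while lambdoid SM had 1 lower at E18.5 (2.96%), Tpm2, at -0.65 ± 0.17, adjusted p = 0.0106. At an unadjusted p under 0.05 the numbers were 2 in frontal SM, Myh11 and Tpm1, and 0 in sagittal SM, and DESeq2 and limma voom called 0 in both. The lambdoid call was lost under limma voom, with second coronal libraries in place of the first and without replicate 4 or 5 (-0.61 and -0.59). In coronal SM 6 were higher and 0 lower (27.1%). Acta2 went from 37.8 to 118 CPM, and every library of E18.5 was above every library of E16.5 (log2 difference 1.65 ± 0.32, adjusted p = 6.05e-05). Tagln (2.09 ± 0.59), Myh11 (1.95 ± 0.68), Actg2 (1.90 ± 0.45), Myl9 (1.11 ± 0.32) and Tpm2 (0.77 ± 0.16) were higher as well, and the call of Myl9 was lost without replicate 1 (0.64) and that of Myh11 without replicate 1, 4 or 5 (1.81, 1.85 and 1.50). With the second libraries in place of the first, Acta2 was still called (1.12, adjusted p = 0.0135), whereas the other 5 were not, at 1.68, 1.37, 0.99, 0.38 and 0.55 in the same order. With the second libraries alone Acta2 had 1.02 (adjusted p = 0.0628), and none of the 6 was called by edgeR. In coronal SM 12 of 23 broadly used actomyosin genes were also higher at E18.5 and 1 lower, 9 of 11 macrophage markers were higher, whose part in the result was not tested, 3 of 14 mural markers were higher and 1 lower, and 0 of 10 endothelial markers were called by edgeR, 2 of them with an unadjusted p under 0.05.

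The age change of the SM and OF difference was a further comparison added after the values were seen. In the coronal suture 3 of 10 genes had a lower difference at E18.5 than at E16.5 and 0 a higher one (7.62% of all genes called). They were Acta2 (-1.69 ± 0.39, adjusted p = 0.00319), Myl9 (-1.21 ± 0.40, adjusted p = 0.0446) and Cnn1 (adjusted p = 0.00354), whose fitted value includes the FR group with 3 libraries at 0. In fitted values Acta2 went from higher to lower in SM than in OF. In the main fit it was called against FR alone at E16.5 and against PA alone at E18.5. Mean levels of the first libraries were 19.2 CPM at E16.5 and 194 CPM at E18.5 in FR, and 23.7 and 239 CPM in PA. At E16.5 second FR libraries held 28.8, 31.2 and 58.7 CPM, where the first of the same replicates held 3.18, 25.2 and 17.5 CPM. In PA the second held 12.8, 55.6 and 63.4 CPM and the first 8.48, 46.5 and 33.2 CPM. The call of Acta2 for this age change was lost without replicate 5 (-1.2), and that of Cnn1 under limma voom and with the second libraries in place of the first or alone. That of Myl9 was lost in 6 of 16 alternatives, among them those without replicate 2, 3, 4 or 5 (-0.76, -1.0, -0.96 and -1.31), while it was -1.94 without replicate 1. In the lambdoid suture Tpm2 had a lower difference at E18.5 (0.126% of all genes called), at -0.86 ± 0.20, adjusted p = 0.0463, a call kept in 5 of 16 alternatives and lost without replicate 1, 2, 3, 4 or 5 (-0.92, -0.80, -0.92, -0.87 and -0.92). The corresponding value of Acta2 there was -1.35 ± 0.39 (adjusted p = 0.172).

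Within groups, the genes did not vary as 1 block. Over the 100 first libraries, with group means of log2(CPM + 1) removed, Pearson's r was 0.52 for Cnn1 with Myl9, 0.47 for Acta2 with Tpm2, 0.43 for Myl9 with Tpm1 and 0.42 for Acta2 with Tagln, and as low as -0.23 for Actg2 with Mylk. These values are descriptions, since libraries of a group share their set. The genes most like Myh11 by this measure were Gja5, a connexin of arterial endothelium (0.57), Afap1l2 (0.56), Snrnp70 (0.55), Bmx, a kinase of arterial endothelium (0.55), and Gm16031 (0.55). Those most like Acta2 were Slc35f2, Dstn, an actin-depolymerizing protein, Vim, the intermediate filament of mesenchyme, Prkg1 and Reep4, all at 0.50.

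Single-cell libraries of dissociated coronal suture, 2 at each age and each from pooled embryos, showed which cells held the transcripts. They allow no test, and the ages are not compared because the capture chemistry differed. Cells were clustered without the 10 genes and named from markers of other genes. No doublet caller was run, and libraries of 1 age shared 1 barcode at E16.5 and 5 at E18.5. At E18.5, 2417 and 1577 cells were kept in libraries 1 and 2, of 2628 and 1999 barcodes, with median depths of 18437 and 7131 UMIs. They fell into 12 clusters, of which an erythroid-like one of 77 cells came from library 2 alone. A mural cell-like cluster held 29 cells (1.2%) of library 1 and 27 (1.71%) of library 2. Its leading genes were Rgs5, Myh11, Higd1b, Gm13889, Des, Rgs4, Gucy1b3, Ebf2, Itga7 and Avpr1a.

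Most UMIs of Myh11 and Des lay in these few mural cell-like cells, whereas most UMIs of the other 8 genes lay in other cells. In libraries 1 and 2 they held 104 of 116 UMIs, 89.7% (95% Wilson interval 82.8 to 94.0%), and 19 of 23 UMIs, 82.6% (95% Wilson interval 62.9 to 93.0%), of Myh11. For Des the values were 92 of 169 UMIs, 54.4% (95% Wilson interval 46.9 to 61.8%), and 56 of 67 UMIs, 83.6% (95% Wilson interval 72.9 to 90.6%). The intervals cover counting error only. For Acta2 the cluster held 1299 of 18898 UMIs, 6.87% (95% Wilson interval 6.52 to 7.24%), and 175 of 2636 UMIs, 6.64% (95% Wilson interval 5.75 to 7.65%). Its shares in libraries 1 and 2 were 14.6% and 21.1% of Mylk, 11.4% and 6.54% of Actg2, 7.97% and 9.57% of Myl9, 4.10% and 2.70% of Tagln, 3.11% and 4.49% of Tpm2, and 2.08% and 4.12% of Tpm1. Cnn1 had 29 of 328 UMIs, 8.84% (95% Wilson interval 6.23 to 12.4%), in library 1 and 0 of 34 UMIs in library 2. Mylk and Myl9 were nevertheless enriched in the cluster, at 21.9 and 13.3 times the CPM of all other cells for Mylk and 11.0 and 5.25 times for Myl9. Per cell the mural cell-like cluster was still the richest for Acta2, at 3117 and 644 CPM against 331 and 183 CPM in all other cells. With so few cells it held a small share, and most Acta2 UMIs lay elsewhere. In libraries 1 and 2 the ectocranial mesenchyme-like cluster held 28.7% and 8.12%, an unnamed cluster led by Ptx4, Dpt, Stmn4, Tppp3 and Chst8 21.7% and 23.4%, the proliferating-like cluster 19.2% and 22.4%, and an unnamed cluster led by Cp, Podnl1, Gpx3, Mmp13 and Pdzrn4 15.9% and 23.4%. Osteoblast-like cells held 0.799% and 9.56%. Tagln, whose exons overlap other genes, had 8813 UMIs in library 1, where Acta2 had 18898.

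**Figure D5:**
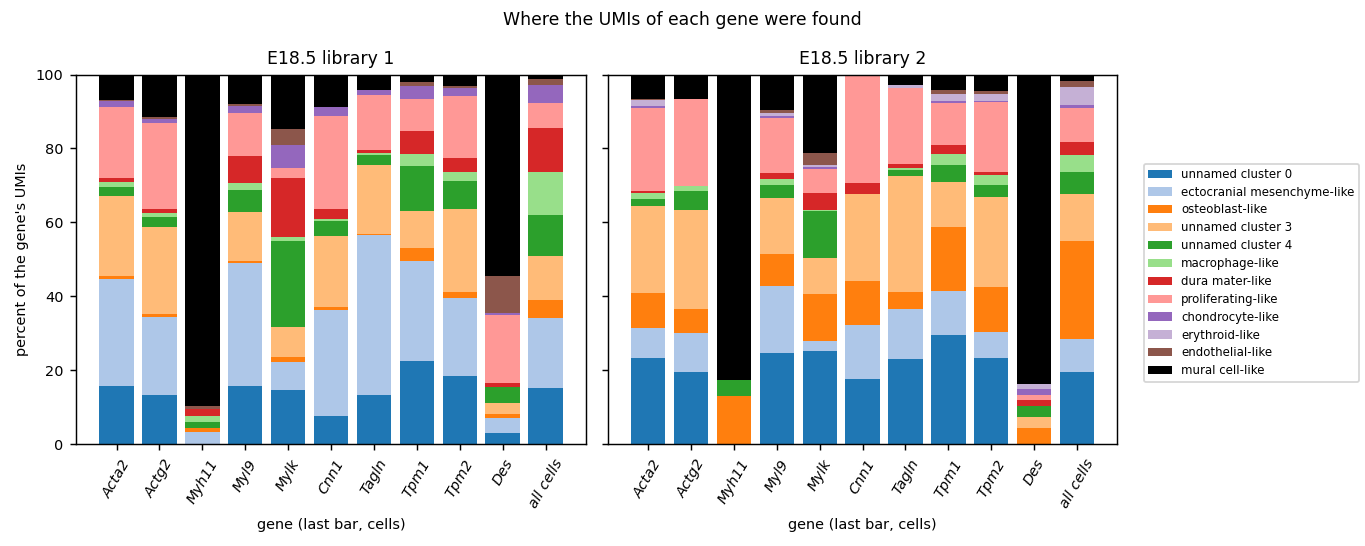
Share of each gene's UMIs, in percent, in each cell cluster of the coronal suture at E18.5, as 1 stacked bar for each gene and, last, for all cells, in library 1 and library 2. The mural cell-like cluster (black) takes 89.7% and 82.6% of the Myh11 bar but 6.87% and 6.64% of the Acta2 bar.

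The mural cell-like cells were themselves mixed. Of 29 in library 1, 12 had a Myh11 UMI, and of 27 in library 2, 5 did. These held 93.2% and 69.7% of the cluster's Acta2 UMIs but 38.0% and 16.1% of its Des UMIs. Acta2 stood at 6214 and 3009.5 CPM in cells with a Myh11 UMI, and at 397 and 229 CPM in those without. Des was at 179.6 and 222 CPM with and 257 and 203 CPM without, so Acta2 was higher in the cells with Myh11 in both libraries, and Des was lower in library 1 and higher in library 2. The split uses Myh11 itself and is a description. Free RNA of Acta2 and Myh11 was gauged in macrophage-like cells, which should lack both genes. With each cell thinned to 1200 UMIs, which left out 0 cells, Acta2 was found in 55.2% and 33.3% of mural cell-like cells, 41.1% and 31.7% of the cluster led by Ptx4, 5.40% and 4.11% of macrophage-like cells and 0% of the 39 and 27 endothelial-like cells. Unthinned, macrophage-like cells reached 49.3% and 45.2%, at median depths of 18649 and 13598 UMIs, and mural cell-like cells 82.8% and 63.0%, at 13322 and 9935 UMIs. Myh11, thinned, was found in 27.6% and 7.41% of mural cell-like cells and 0% of macrophage-like cells in both libraries, where unthinned 0.719% and 0% had one.

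At E16.5 the data were shallower, with 467 and 337 cells kept of 1530 and 1482 barcodes and median depths of 2499 and 2121 UMIs. The 9 clusters included no mural cell-like one, whereas the authors kept more cells of this age and listed pericytes among its populations. All 7 Myh11 UMIs (3 in library 1, 4 in library 2) lay in an unnamed cluster led by Tnn, Serpine2, Tnc, Npnt and Fgfr2, which also held 36.7% and 66.3% of the 90 and 98 Acta2 UMIs, while the ectocranial mesenchyme-like cluster held 48.9% and 22.4%. At a clustering resolution of 1.2 a mural cell-like cluster of 13 and 17 cells was separate and held 100% of the Myh11 UMIs in both libraries and 17.8% and 52.0% of those of Acta2. A hypodermis-like cluster had 122 cells of library 1 and 1 of library 2.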

How the data were processed

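Laser-captured regions and complete sutures were sequenced after whole-transcriptome amplification (Ovation V2, Nextera XT), and dissociated coronal sutures by droplet single-cell RNA-seq. The authors trimmed reads with cutadapt, aligned them to mm10 with STAR 2.5.3a and counted pairs on exons of GENCODE vM22 genes with featureCounts 1.6.4, unstranded, leaving out ambiguous and multi-mapped pairs. The deposited values are counts per gene and UMI counts per cell, without normalization. A further deposited table holds the authors' own SM against OF log2 ratios and was not used.

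Counts were fitted with edgeR 4.0.16 (R 4.3.3): TMM scaling, 20 group means over 100 first libraries, a filter that kept genes reaching 1 CPM in more than 10% of them, quasi-likelihood tests, two-sided, Benjamini-Hochberg adjusted within each comparison over 19768 genes, threshold 0.05. Levels are TMM-scaled CPM. Members and lists were chosen with earlier results of these data known, as was the rule for named genes: all members, up to 4 genes of each partner, actomyosin, cofactor and mural list with the smallest adjusted p in the mean SM and OF difference, the 5 genes most like Myh11 and Acta2 by Pearson's r within groups, and the 10 leading genes of the cluster with most member UMIs. The labels do not say that libraries came from separate embryos, so p-values measure the spread between these libraries. Same-numbered SM and OF libraries share the whole litter label, so their numbers pair them: deviations from group means had a median r of 0.064 over 60 same-numbered pairs and -0.022 over 240 others. Differently numbered libraries of a group can share all of this label but its last number, and whether they share a litter is not stated. Single cells with over 800 genes were clustered without the members (scanpy 1.11.5, Leiden, 13 components, 100 neighbours, resolution 0.8). Libraries of an age were joined without correction for the library. Alternatives comprised DESeq2 1.42.0, limma voom (limma 3.58.1), other scalings and filters, each replicate left out, the replicate block, each suture and age by itself, the second coronal libraries, a library set term and, chosen after seeing the data, the second libraries alone, with and without that term, and the fit without lambdoid E16.5 SM replicate 5. The edgeR fit alone was run on simulated counts, for the frontal E18.5 comparison of SM with FR. As these counts were drawn with dispersions that edgeR estimated from these libraries, the run checks neither that model nor the alternatives.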

Additional observations from a re-analysis of the deposited data

Results flagged for a closer look

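Of 200 groups of 5 libraries checked (10 genes in 20 groups, on log2(CPM + 1)), 15 held a library set apart from the rest by Dixon's ratio for 5 samples. Chance flags about 1 in 20 groups, and no explanation was tested. Tpm1 was high in coronal E16.5 SM replicate 5 (519.7 CPM). Mylk was high in lambdoid E18.5 PA replicate 3 (93.1 CPM) and low in coronal E18.5 FR replicate 2 (79.9 CPM). Tpm2 was high in frontal E16.5 SM replicate 1 (143 CPM). Myl9 was low in frontal E16.5 SM replicate 5 (102 CPM), and Actg2 in coronal E18.5 SM replicate 1 (8.29 CPM). Cnn1 was high in frontal E16.5 SM replicate 3 (12.2 CPM) and coronal E16.5 FR replicate 2 (0.614 CPM) and low in lambdoid E18.5 IP replicate 2 (4.79 CPM). Tagln was high in lambdoid E18.5 PA replicate 5 (6.60 CPM). Des was high in lambdoid E16.5 IP replicate 4 (4.49 CPM), sagittal E18.5 PA replicate 3 (1.16 CPM), coronal E16.5 SM replicate 2 (1.71 CPM), coronal E16.5 PA replicate 2 (0.941 CPM) and coronal E16.5 FR replicate 1 (0.230 CPM), mostly at levels of a few reads.

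The SM and OF difference itself differed between groups for 6 values. In the coronal suture against the other sutures it was lower for Acta2 (-0.63) and Tpm1 (-1.13) on the log2 scale. Between E16.5 and E18.5 it fell in the coronal suture for Acta2 (-1.69), Myl9 (-1.21) and Cnn1 (-3.09, which is not read as a size, since 3 of 5 FR libraries of E16.5 were at 0), and in the lambdoid suture for Tpm2 (-0.86).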

How the results depend on the processing

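Of 121 calls of a member, 54 kept direction and call under every alternative run. Of 2025 alternative values 1780 did so, 234 kept the direction but missed the threshold and 11 had the opposite sign. All 11 involved second coronal libraries. With these alone they were Myl9 in coronal minus frontal SM E18.5 (0.053), Tagln and Tpm1 in coronal minus frontal FR E16.5 (0.46 and 0.0069), Tpm2 in coronal minus frontal SM E16.5 (0.47, and 0.093 with them in place of the first), and Myl9 and Tpm2 in coronal minus sagittal PA E18.5 (0.24 and 0.28). With a library set term and second libraries alone they were Myl9, Tagln and Tpm2 in coronal minus sagittal PA E18.5 (0.22, 0.34 and 0.69) and Tpm2 in coronal minus sagittal SM E18.5 (0.034). The cause was not tested.

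As replicates were left out, the total of member calls was counted anew, so it can hold calls gained as well as kept. It ran from 36 to 44 for SM against OF (43 in the main fit), 9 to 10 for the mean (10) and 1 to 2 for the coronal specificity (2). Between sutures it ran from 23 to 28 in SM (27) and 21 to 26 in OF (26), and for age from 5 to 10 (7). The replicate block gave 49, 10 and 2 calls for the first 3 and changed no call beyond those given in the report. The specificity count was 1 under limma voom, under total counts without TMM and with second libraries in place of the first. That in OF was 16 with second libraries in place and 9 with the set term and second libraries alone, and that for age 1 and 4 with second libraries in place and alone, where none of the 6 coronal calls was kept with second libraries alone. Mural cell-like shares of Myh11 and Acta2 UMIs at E18.5 moved within their counting intervals. The sizes of Tagln, Cnn1, Des and Myh11 are limited where a coronal E16.5 library holds 0 counts. The coronal first libraries were the deepest of the series. In some cases the second library held counts where the first held 0, as for Cnn1 in PA replicate 3 (3.25 CPM) and Tagln in FR replicate 1 (1.22 CPM). The cause of these zeros was not tested.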
